A study of Mus musculus with 6 samples.

Results

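The genes described here are 9 genes of nitric oxide and cyclic GMP signalling, Nos3, Cav1, Gucy1a1, Gucy1b1, Npr1, Npr3, Prkg1, Pde5a and Pde3a, in the aorta of young and aged mice. They were taken by name from the 55335 genes of the count table, as genes of the pathway, with earlier results of these data known. Of the 9 symbols, 7 were found as such, and Gucy1a1 and Gucy1b1 were found under their older symbols Gucy1a3 and Gucy1b3.

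The nitric oxide and cyclic GMP pathway is a main relaxing signal of the arterial wall. Endothelial cells make nitric oxide with Nos3, which is held at the plasma membrane and inhibited by the caveola protein Cav1, and the gas diffuses into the smooth muscle cells underneath. There it binds the soluble guanylyl cyclase, a dimer of the Gucy1a1 and Gucy1b1 subunits, which makes cyclic GMP. The receptor Npr1 makes cyclic GMP in response to atrial and brain natriuretic peptide, while Npr3 takes up and clears natriuretic peptides. Cyclic GMP activates the kinase Prkg1, which lowers calcium in smooth muscle and relaxes it, and the phosphodiesterases Pde5a and Pde3a limit the signal, Pde5a by degrading cyclic GMP and Pde3a by degrading cyclic AMP in a way that cyclic GMP inhibits.

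Aorta was taken from young mice, aged 6 weeks, and aged mice, aged 6 months, with 3 libraries in each group. The vessels were collected mouse by mouse and the labels number the libraries as repeats, without saying whether each library is 1 mouse. All mice were wild-type C57BL/6 (written c57b6l in the labels) and described as male, and the groups differed in age alone as far as the labels say. An age of 6 months is that of an adult mouse, and the term aged is the study's own. Vessels were cleaned of the fat around them, and the labels do not say which stretch of the aorta was used.

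Between 31049632 and 45832185 reads per library were counted on genes, and 16612 genes passed the filter on low counts, all 9 genes described here among them. Values below are CPM, the counts of a gene relative to the TMM-scaled library total, unless FPKM is named, which also divides by gene length. TMM scaling factors were 1.06 to 1.11 in young and 0.886 to 0.944 in aged libraries, and mitochondrial genes took 14.9% to 21.2% of the counts in young and 23.1% to 30.4% in aged libraries. Some libraries stood apart from their group. Young replicate 1 had 305.6 CPM of Xist, the RNA that silences an X chromosome in female cells, against 0.204 to 0.636 CPM in the other 5 libraries, which goes against the description of all mice as male. Its 8 cardiac muscle markers summed to 412 CPM, against 87.3 to 105 CPM elsewhere. Aged replicate 2 held brown fat markers at 1915 CPM, against 133 to 621 CPM elsewhere, and aged replicate 3 held endothelial markers at 1850 CPM, against 433 to 598 CPM elsewhere.

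The start regions of the 5 members that lay lower in every aged than in every young library are shown first, as RefSeq gives them on GRCm38.p6. Each line holds the 120 bases before 1 start site, read 5′ to 3′ on the strand of the gene, with no base in an exon of GENCODE M21. They are chr6:17306215-17306334 (plus strand) for Cav1, chr3:82145074-82145193 (minus strand) for Gucy1a1, chr3:82074712-82074831 (minus strand) for Gucy1b1, chr3:90465867-90465986 (minus strand) for Npr1 and chr19:31765034-31765153 (minus strand) for Prkg1. The Gucy1a1 start site lies inside the gene, downstream of its first annotated base. The table matched 7 of the 9 genes, and Nos3 and Pde3a had no entry.
Cav1: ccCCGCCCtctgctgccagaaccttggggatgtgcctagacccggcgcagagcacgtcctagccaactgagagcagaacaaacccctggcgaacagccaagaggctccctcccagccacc
Gucy1a1: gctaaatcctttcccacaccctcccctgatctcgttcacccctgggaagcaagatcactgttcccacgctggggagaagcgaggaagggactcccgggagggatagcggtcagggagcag
Gucy1b1: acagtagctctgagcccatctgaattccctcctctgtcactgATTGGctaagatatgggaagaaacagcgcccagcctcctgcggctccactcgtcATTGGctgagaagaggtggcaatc
Npr1: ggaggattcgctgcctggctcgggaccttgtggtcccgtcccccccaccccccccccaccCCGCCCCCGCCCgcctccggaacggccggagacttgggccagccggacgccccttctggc
Prkg1: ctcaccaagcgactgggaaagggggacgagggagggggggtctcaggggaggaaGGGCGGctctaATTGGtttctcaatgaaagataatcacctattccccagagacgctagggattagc

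The capitals mark matches to the GC box (GGGCGG, read as CCGCCC on the other strand) and to the CCAAT box (CCAAT, read as ATTGG on the other strand). Cav1 held 1 GC box in this window, Npr1 held 2 GC boxes, Prkg1 held a GC box and a CCAAT box, and Gucy1b1 held 2 CCAAT boxes. Gucy1a1 held neither. Over the 250 bases before each of the 10 start sites of 7 members, 7 windows held a GC box, 4 a CCAAT box, 1 a TATA box (TATAAA) and 0 a CArG box. Among all 32851 promoters of the table, with windows of the same length searched on both strands, these motifs occurred in 32.7%, 33.8%, 12.4% and 1.47%. The CArG box is the motif bound by serum response factor in many smooth muscle genes. These are matches of letters, and no binding was measured.

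Of the 9 genes, 8 were lower and 1, Nos3, was higher in aged than in young aorta, where 47.9% of all genes tested were lower. None passed the edgeR quasi-likelihood test at an adjusted p below 0.05 (Benjamini-Hochberg, 0% of all genes tested), and the lowest adjusted p of any gene was 0.189. At an unadjusted p below 0.05, 4 of the 9 were lower (Cav1, Gucy1a1, Gucy1b1 and Npr1), beside 4.82% of all genes, and 1 was higher (Nos3), beside 5.56%. DESeq2 called 305 genes, 1.91% of those it tested, and 0 of the 9, and limma on log2 FPKM called 0 genes. The unadjusted count was 0 of the 9 without young replicate 1 or without young replicate 3, and 1 of the 9, lower, without aged replicate 3. Nos3 was not below 0.05 with limma on FPKM or with a replicate block.

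Direction over single libraries was read from the same counts, so it is a description and not a second test. In 5 of the 9 genes (Cav1, Gucy1a1, Gucy1b1, Npr1 and Prkg1) every aged library lay below every young library, beside 8.78% of all genes tested. In Nos3 every aged library lay above every young one, beside 7.74% of all genes, and in Pde5a, Pde3a and Npr3 the groups overlapped. The count of 5 held with RLE scaling (8.43% of all genes) and was 6 on CPM without TMM scaling and on FPKM, with Pde5a added, where the share of all genes was higher too (22.2% and 20.9%). The median log2 fold change of the 9 genes was -0.33, beside 0.02 for all genes tested.

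**Figure D1:**
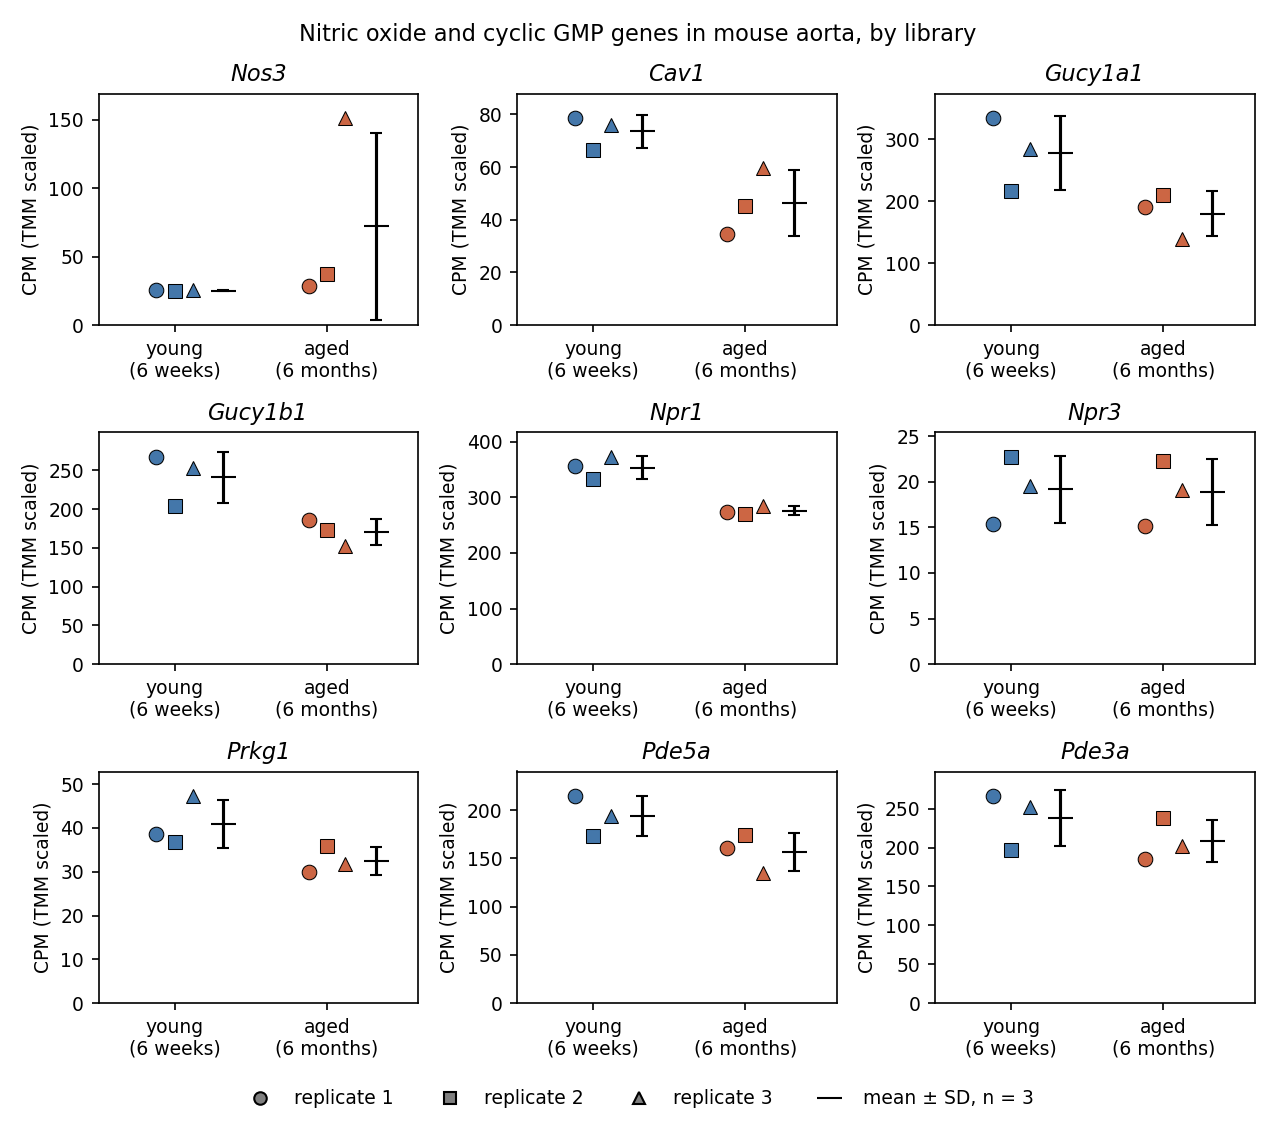
TMM-scaled CPM of each gene in the 3 young and 3 aged libraries, with the mean ± SD of each group (n = 3) at its right and the y axis starting at 0. Nos3 was at 151 CPM in aged replicate 3 and at most at 37.5 CPM elsewhere, and the aged points of Cav1, Gucy1a1, Gucy1b1, Npr1 and Prkg1 all lay under the young ones.

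Nos3 (ENSMUSG00000028978, chr5:24364810-24384474, plus strand of GRCm38), the endothelial nitric oxide synthase, was at 25.4, 24.9 and 25.7 CPM in young replicates 1, 2 and 3. It was at 28.5, 37.5 and 151 CPM in aged replicates 1, 2 and 3. Every aged library lay above every young library, but the aged values spread widely and 1 library, aged replicate 3, stood far above the rest. The means were 25.3 ± 0.438 CPM in the young and 72.4 ± 68.4 CPM in the aged group (SD, n = 3 each). This is a log2 fold change of 1.51 (SE 0.60), against 0.81 and 0.88 with limma on log2 FPKM (pseudocounts 1 and 0.1). The adjusted p was 0.453 in the edgeR fit and 0.0894 with DESeq2.

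The level in aged replicate 3 was 4.03-fold that of aged replicate 2 and between 5.87-fold and 6.08-fold that of the young libraries. By the fold over the next highest library, Nos3 ranked 32nd of the 16612 genes tested in that library. Without aged replicate 3 the log2 fold change was 0.38 (edgeR, adjusted p = 0.695). In FPKM, which carries no TMM factor, the groups overlapped, with 5.86, 5.91 and 6.24 in young and 5.90, 7.78 and 29.6 in aged libraries. Nos3 shares 1040 exon bases with the antisense gene Gm15587 and 294 with Atg9b, and whether strand was used in counting is not given. Gm15587 had 10 to 49 counts in the other libraries and 117 in aged replicate 3, where Nos3 had 4271.

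Endothelial markers were high in the same library. All 10 genes of the endothelial list (Pecam1, Cdh5, Tek, Tie1, Vwf, Kdr, Egfl7, Emcn, Cldn5 and Erg) were highest in aged replicate 3, by 1.04-fold (Erg) to 4.32-fold (Tie1) over the next highest library, with a median of 1.97-fold. Their summed level was 491 to 598 CPM in the young libraries, 433 and 471 CPM in aged replicates 2 and 1, and 1850 CPM in aged replicate 3, and none of the 10 was at 0 in any library. On the log2 scale relative to the young mean, aged replicate 3 was at 2.58 for Nos3, 2.22 for Tie1, 2.10 for Pecam1 and 2.06 for Tek, but at 0.73 for Kdr and 0.10 for Erg. Set against the mean log2 CPM of the 10 markers, Nos3 was 0.64 higher in aged than in young aorta (exact two-sided permutation test, p = 0.2, adjusted p = 1 over 10 such contrasts, where 0.1 is the smallest p that 3 against 3 allows). With 1 library left out this difference ran from 0.42 without aged replicate 3 to 0.87 without aged replicate 1. The part of the endothelial markers in the Nos3 difference was not tested further. In RNA from whole tissue, more cells of a type and more RNA per cell cannot be told apart.

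**Figure D2:**
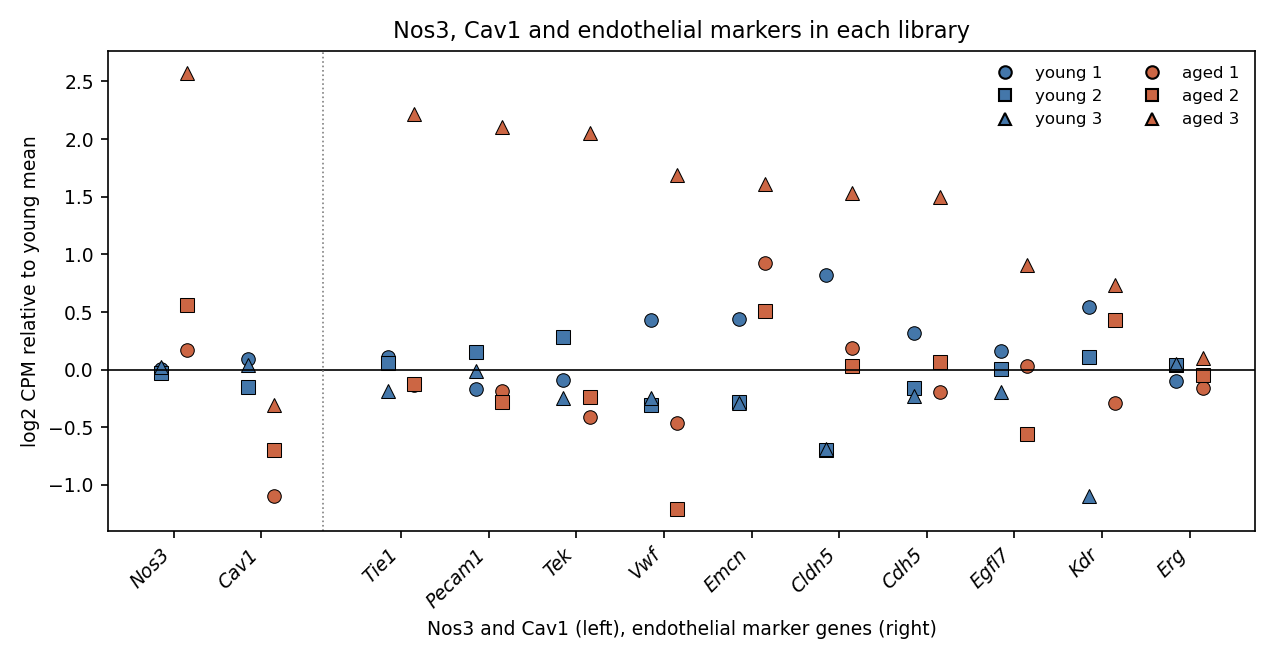
Level of Nos3, Cav1 and 10 endothelial markers in each library, as log2 CPM relative to the mean of the 3 young libraries, with markers ordered by their value in aged replicate 3. Aged replicate 3 was the highest library for Nos3, at 2.58, and for all 10 markers, down to 0.10 for Erg, while Cav1 lay at -1.10, -0.70 and -0.31 in aged replicates 1, 2 and 3.

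Cav1 (ENSMUSG00000007655, chr6:17306335-17341452, plus strand), the scaffold of caveolae in endothelium, smooth muscle and fat cells and an inhibitor of Nos3, was at 78.5, 66.5 and 75.8 CPM in the young libraries. It was at 34.4, 45.3 and 59.5 CPM in aged replicates 1, 2 and 3. The groups did not overlap, and the aged library with the highest endothelial markers was also the one closest to the young level. The means were 73.6 ± 6.28 and 46.4 ± 12.6 CPM (SD, n = 3 each), 37.0% lower in the fit, with a log2 fold change of -0.67 (SE 0.22). The adjusted p of 0.403 in edgeR was the lowest of the 9 genes, and DESeq2 gave 0.247. Leaving out any 1 library moved the log2 fold change between -0.88 and -0.49. Against the mean log2 CPM of the endothelial markers, the difference for Cav1 was -1.15 (exact two-sided permutation test, p = 0.1, adjusted p = 1 over 10 contrasts). With 1 library left out it ran from -1.42 without aged replicate 2 to -0.83 without aged replicate 3, where those markers were highest. Cav1 was not set against smooth muscle or fat markers.

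In CPM, Nos3 lay above and Cav1 below the young mean in all 3 aged libraries, while in FPKM Nos3 of aged replicate 1, at 5.90, lay under the young mean of 6.00. The ratio of their FPKM values, a choice made after the data were seen, was 0.271, 0.313 and 0.285 in the young libraries and 0.695, 0.694 and 2.13 in the aged ones. The groups did not overlap, and aged replicates 1 and 2 had nearly the same ratio, above the young ones. In aged replicate 1 only Cav1 raised the ratio, at 8.48 FPKM beside a young mean of 20.8. The log2 difference was 1.80 (exact two-sided permutation test, p = 0.1, adjusted p = 0.3 over 6 ratios). This difference includes aged replicate 3, with the highest ratio, and was not computed without it.

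Gucy1a1 (ENSMUSG00000033910, listed under its older symbol Gucy1a3, chr3:82092427-82145789, minus strand), the alpha subunit of the nitric oxide receptor, was at 333.5, 216 and 283 CPM in the young libraries. It was at 190, 210 and 139 CPM in aged replicates 1, 2 and 3. The groups came close without overlapping, as young replicate 2 was little above aged replicate 2. The means were 278 ± 58.9 and 179.8 ± 36.6 CPM (SD, n = 3 each), 35.2% lower in the fit, with a log2 fold change of -0.63 (SE 0.23). Adjusted p values were 0.437 in edgeR and 0.311 with DESeq2. Without both young replicate 1 and aged replicate 3, the libraries at its 2 extremes, the log2 fold change was -0.31 (edgeR, adjusted p = 0.679).

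Gucy1b1 (ENSMUSG00000028005, listed as Gucy1b3, chr3:82032006-82074689, minus strand), the beta subunit that carries the haem, lies beside Gucy1a1 on chromosome 3. It was at 267, 204 and 252.5 CPM in the young and at 186, 173 and 152 CPM in the aged libraries, again without overlap. The means were 241 ± 32.9 and 170.5 ± 17.1 CPM (SD, n = 3 each), 29.3% lower in the fit, with a log2 fold change of -0.50 (SE 0.17). The adjusted p was 0.415 in edgeR and 0.345 with DESeq2.

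Both subunits varied together among the libraries, with a Pearson r of 0.96 between their log2 CPM over the 6 libraries, a description that includes the difference between the groups. The FPKM ratio of Gucy1a1 to Gucy1b1 was 0.643 ± 0.0546 in the young and 0.590 ± 0.0842 in the aged group (SD, n = 3 each), a difference within the spread of the libraries (exact two-sided permutation test, p = 0.4, adjusted p = 0.48 over 6 ratios). Gucy1a2, the other alpha subunit, was at 0.914 ± 0.477 CPM in the young and 0.626 ± 0.266 CPM in the aged group (SD, n = 3 each), so nearly all alpha subunit counts were those of Gucy1a1.

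Npr1 (ENSMUSG00000027931, chr3:90450591-90465866, minus strand), the guanylyl cyclase receptor of atrial and brain natriuretic peptide, was at 356, 332 and 372 CPM in the young libraries and at 273, 269 and 285 CPM in the aged ones. Both groups were tight and did not overlap. The means were 354 ± 19.9 and 276 ± 7.98 CPM (SD, n = 3 each), 22.0% lower in the fit, with a log2 fold change of -0.36 (SE 0.14). In edgeR the adjusted p was 0.449, and with DESeq2 it was 0.523, and leaving out any 1 library kept the log2 fold change between -0.39 and -0.31. Npr1 shares 559 exon bases with the antisense gene Gm16048, which had 65 to 193 counts per library.

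Npr3 (ENSMUSG00000022206, chr15:11839896-11907287, minus strand), the clearance receptor, was at 15.4, 22.7 and 19.5 CPM in young and at 15.1, 22.3 and 19.1 CPM in aged libraries. The ranges of both groups were nearly the same. The means were 19.2 ± 3.66 and 18.8 ± 3.60 CPM (SD, n = 3 each), with a log2 fold change of -0.03 (SE 0.22). The adjusted p was 0.977 in edgeR and 0.994 with DESeq2. Its direction turned with the library left out, from -0.16 to 0.12, and Npr3 shares 321 exon bases with Gm5144, a non-coding gene on the other strand. The FPKM ratio of Npr1 to Npr3 was 37.5 ± 8.41 in the young and 29.7 ± 5.97 in the aged group (SD, n = 3 each) (exact two-sided permutation test, p = 0.3, adjusted p = 0.48 over 6 ratios).

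Prkg1 (ENSMUSG00000052920, chr19:30564489-31765033, minus strand), the cyclic GMP dependent kinase of smooth muscle, was at 38.7, 36.7 and 47.2 CPM in young and at 29.8, 35.9 and 31.7 CPM in aged libraries. The groups were separated by less than 1 CPM, between young replicate 2 and aged replicate 2. The means were 40.9 ± 5.57 and 32.5 ± 3.09 CPM (SD, n = 3 each), 20.6% lower in the fit, with a log2 fold change of -0.33 (SE 0.16). The edgeR fit gave an adjusted p of 0.529 and DESeq2 one of 0.708.

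Pde5a (ENSMUSG00000053965, chr3:122728947-122859374, plus strand), the phosphodiesterase that sildenafil inhibits, was at 214, 174 and 194 CPM in young and at 161, 174 and 135 CPM in aged libraries. The groups met at young replicate 2 and aged replicate 2 and so overlapped. The means were 194 ± 20.3 and 157 ± 19.8 CPM (SD, n = 3 each), 19.2% lower in the fit, with a log2 fold change of -0.31 (SE 0.17). The adjusted p was 0.558 in edgeR and 0.721 with DESeq2. Pde5a followed Gucy1a1 among the libraries, with a Pearson r of 0.99 over the 6 libraries.

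Pde3a (ENSMUSG00000041741, chr6:141249269-141507448, plus strand), the phosphodiesterase inhibited by cyclic GMP, was at 266, 197 and 252 CPM in young and at 186, 238 and 203 CPM in aged libraries. The groups overlapped over much of their range. The means were 238 ± 36.2 and 209 ± 26.8 CPM (SD, n = 3 each), 12.4% lower in the fit, with a log2 fold change of -0.19 (SE 0.18). Adjusted p values were 0.725 in edgeR and 0.875 with DESeq2. Pde3a shares 741 exon bases with the antisense gene Gm28523, which had 78 to 279 counts per library.

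The breakdown enzymes were also set against the cyclase. The FPKM ratio of Pde5a to Gucy1b1 was 0.320, 0.339 and 0.307 in young and 0.345, 0.400 and 0.355 in aged libraries. Each aged library lay above each young one, by a log2 difference of 0.19 (exact two-sided permutation test, p = 0.1, adjusted p = 0.3 over 6 ratios). The ratio was chosen after the data were seen, and with 3 against 3 libraries this test gives 0.1 for any groups without overlap. The ratio of Pde5a to Pde3a was 1.06 ± 0.0717 in the young and 0.980 ± 0.133 in the aged group (SD, n = 3 each), and its groups overlapped (exact two-sided permutation test, p = 0.4, adjusted p = 0.48).

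**Figure D3:**
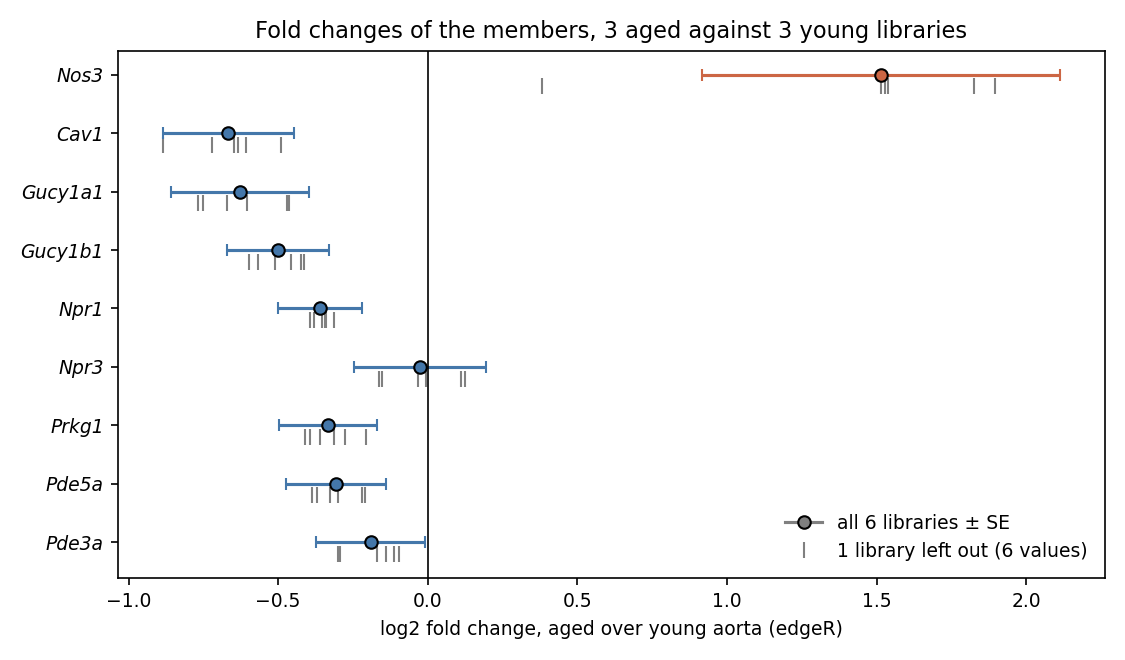
Log2 fold change of aged over young aorta from edgeR for each gene, with its standard error as a bar, and under it the values with each of the 6 libraries left out in turn as ticks. Nos3 lay at 1.51 and at 0.38 without aged replicate 3, the ticks of 7 genes all lay below 0, and those of Npr3 lay on both sides of 0.

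Per length of gene, Npr1 and both cyclase subunits were the most abundant, and Npr3 the least. In young aorta the mean FPKM was 72.4 ± 4.95 (SD, n = 3) for Npr1, 59.97 ± 7.84 (SD, n = 3) for Gucy1b1 and 38.8 ± 7.72 (SD, n = 3) for Gucy1a1, and the values of these 3 genes did not overlap. Cav1, Pde5a and Pde3a followed at 20.8 ± 1.69, 19.2 ± 1.77 and 18.2 ± 2.66 (SD, n = 3), and their values overlapped. Nos3 was at 6.00 ± 0.206, Prkg1 at 3.62 ± 0.565 and Npr3 at 1.99 ± 0.407 FPKM (SD, n = 3). In aged aorta Npr1, Gucy1b1 and Gucy1a1 were again the first 3 by mean, at 48.4 ± 0.373, 36.5 ± 4.71 and 21.7 ± 5.02 FPKM (SD, n = 3). Nos3 there was at 14.4 ± 13.2 FPKM (SD, n = 3), a mean set by aged replicate 3.

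The wall cells in which most of these genes act were read through their markers. All 10 smooth muscle markers were detected in every library, at a summed level of 33277 to 41233 CPM in young and 28834 to 34062 CPM in aged libraries. All 10 had a log2 fold change below 0, and neither edgeR nor DESeq2 called any of them. The values ran from -0.01 for Tagln to -1.10 for Myocd, the co-activator of the smooth muscle programme, at 27.7 CPM on average. The myosin Myh11 was at -0.44, Lmod1 at -0.54 and Smtn at -0.61. Acta2, Cnn1, Synpo2, Actg2 and Des lay between -0.19 and -0.12. The mean log2 CPM of the 10 markers, in which each gene weighs alike, differed by -0.35 between aged and young aorta.

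Against that mean, the differences of 6 genes known for their role in smooth muscle lay between -0.28 and 0.16 on the log2 scale. Npr1 was at -1.54 ± 0.106 (SD, n = 3) relative to the markers on the log2 scale in young and at -1.55 ± 0.0909 (SD, n = 3) in aged aorta, a difference of -0.01 (exact two-sided permutation test, p = 0.8). Prkg1 differed by 0.02 (exact permutation test, p = 0.9), Pde5a by 0.04 (exact permutation test, p = 1) and Pde3a by 0.16 (exact permutation test, p = 0.4). Gucy1a1 differed by -0.28 (exact permutation test, p = 0.6) and Gucy1b1 by -0.15 (exact permutation test, p = 0.5). Single libraries moved both values. That of Gucy1a1 ran from -0.42 without young replicate 2 to -0.080 without young replicate 1 and -0.068 without aged replicate 3. That of Gucy1b1 ran from -0.27 without aged replicate 1 to -0.033 without aged replicate 3 and -0.016 without young replicate 1. That of Pde3a ran from 0.058 without young replicate 2 to 0.30 without young replicate 1. The mean of the markers includes Myocd, the lowest at -1.10, and no marker was left out in turn. With the median of the markers in place of their mean, the 6 differences ran from -0.20 for Gucy1a1 to 0.24 for Pde3a. Every adjusted p was 1 over the 10 contrasts. The part of the smooth muscle markers in the lower levels of these genes was not tested beyond this, and a lower share of smooth muscle cells and less RNA of the whole programme per cell cannot be told apart.

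**Figure D4:**
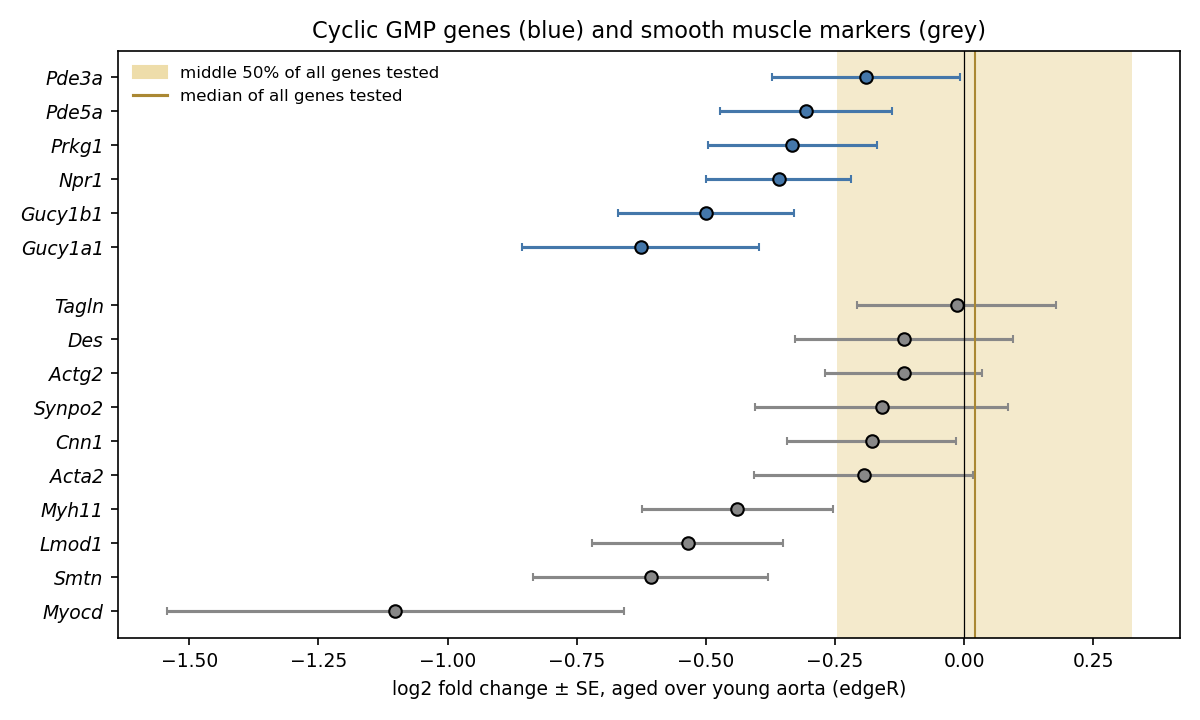
Log2 fold change of aged over young aorta, with its standard error, for 6 cyclic GMP genes (blue) and 10 smooth muscle markers (grey), with a line at the median of all 16612 genes tested and a band over the middle 50% of them. The 6 genes lay between -0.63 and -0.19, inside the range of the markers, which ran from -1.10 for Myocd to -0.01 for Tagln. Without Myocd the lowest marker was Smtn at -0.61, above Gucy1a1 at -0.63.

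Marker levels of other cells also differed between libraries. All 8 macrophage markers were higher, at a summed level of 89.5 to 117 CPM in young and 130 to 390 CPM in aged libraries, and 6 of 8 fibroblast markers were higher, at 3931 to 5907 CPM in young and 3534 to 9819 CPM in aged libraries. The 8 adipocyte markers were at 160 to 766 CPM in young and 183 to 721 CPM in aged libraries, with 4 higher and 4 lower. edgeR called none of these markers, as it called no gene at all. DESeq2 called 5 macrophage markers (Itgam, Mrc1, Cd163, C1qa and Csf1r), 2 fibroblast markers (Dpt and Pdgfra) and the neuronal marker Tubb3, all higher in aged aorta, with adjusted p from 2.9e-05 for Itgam to 0.0479 for Csf1r. The part of these cells in the values of the 9 genes was not tested. With the mitochondrial genes and their nuclear copies removed, which differ in share between the groups, the log2 fold changes were 1.51 for Nos3 and -0.67 for Cav1.

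The wider pathway was read in 6 lists of 85 genes in all, of which 73 were tested. Of these 73 genes, 36 had a log2 fold change above 0 and 37 below 0, and edgeR called none of them. Among the 64 tested genes other than the 9 described, 35 were higher and 29 lower, with a median log2 fold change of 0.07, beside 0.02 for all genes. DESeq2 called 2 of the 73 genes, Ass1 and Rgs2, both higher, beside 1.91% of all genes it tested.

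Of the 22 tested genes of nitric oxide synthesis and its regulators, 17 were higher and 5 lower, with a median log2 fold change of 0.18. Ass1, which makes the precursor from which cells regenerate arginine, the substrate of Nos3, was at 5.28, 7.85 and 5.59 CPM in young and at 17.4, 8.45 and 32.5 CPM in aged libraries. Its groups did not overlap, and its highest value was again in aged replicate 3. The log2 fold change was 1.64 (SE 0.47), with an adjusted p of 0.380 in edgeR and 0.0197 with DESeq2. Hsp90ab1, a chaperone that binds Nos3 and the most abundant gene of the list, was at 815 ± 159 in the young and 979 ± 45.4 CPM in the aged group (SD, n = 3 each), with a log2 fold change of 0.27 (edgeR, adjusted p = 0.641).

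Of the 9 tested genes of the caveola coat, 8 were lower and 1 higher, with a median of -0.16, and Cav1 had the lowest log2 fold change. Cavin1, the most abundant, was at 1152 ± 167 in the young and 1032 ± 30.5 CPM in the aged group (SD, n = 3 each) (log2 fold change -0.16, edgeR adjusted p = 0.754). Pacsin3, which shapes the caveola neck, was at 37.7 ± 3.20 and 29.9 ± 3.05 CPM (SD, n = 3 each) without overlap (log2 fold change -0.34, edgeR adjusted p = 0.501).

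All 6 tested guanylyl cyclases had log2 fold changes below 0, with a median of -0.52. Beyond Gucy1a1, Gucy1b1 and Npr1, this count holds the receptor Npr2 at -0.16, where the groups overlapped, and Gucy1a2 and Gucy2g at under 1 CPM on average in either group. Among the 5 tested genes of natriuretic peptide processing and clearance, 2 were higher and 3 lower, with a median of -0.03. Ide, a peptidase known for degrading insulin and atrial natriuretic peptide, was at 56.2, 61.8 and 59.0 CPM in young and at 95.8, 103.7 and 78.1 CPM in aged libraries. Its groups did not overlap, with a log2 fold change of 0.65 (SE 0.16) and an adjusted p of 0.377 in edgeR and 0.108 with DESeq2. Corin, which cleaves the precursor of atrial natriuretic peptide, was at 3.47 ± 2.76 and 1.59 ± 0.760 CPM (SD, n = 3 each) (log2 fold change -1.13, edgeR adjusted p = 0.630).

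Of the 14 tested genes of the kinase and its targets, 10 were lower and 4 higher, with a median of -0.35. Vasp, an actin regulator phosphorylated by the kinase, was at 146, 154 and 167 CPM in young and at 116, 104 and 112 CPM in aged libraries. The groups did not overlap, with a log2 fold change of -0.50 (SE 0.14) and an adjusted p of 0.379 in edgeR and 0.245 with DESeq2. Rgs2, which the kinase activates to shut off Gq-coupled receptors, was at 34.9, 46.2 and 30.4 CPM in young and at 55.4, 139.7 and 91.6 CPM in aged libraries. All aged libraries were above the young ones, with a log2 fold change of 1.36 (SE 0.34) and an adjusted p of 0.377 in edgeR and 0.0117 with DESeq2. The calcium pump Atp2a2 was at 602 ± 82.8 and 456 ± 17.5 CPM (SD, n = 3 each), without overlap (log2 fold change -0.40, edgeR adjusted p = 0.466).

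Of the 18 tested phosphodiesterases and export pumps, 12 were higher and 6 lower, with a median of 0.45, so Pde5a and Pde3a were among the minority of the list. Pde8a, which degrades cyclic AMP, was at 7.41, 9.94 and 5.62 CPM in young and at 12.8, 17.3 and 16.5 CPM in aged libraries. Its groups did not overlap, with a log2 fold change of 1.02 (SE 0.26) and an adjusted p of 0.377 in edgeR and 0.0569 with DESeq2. Pde2a, which cyclic GMP activates, was at 0.213 ± 0.158 and 1.69 ± 1.87 CPM (SD, n = 3 each), a low level that reached 3.79 CPM in aged replicate 2, where brown fat markers were high (log2 fold change 2.97, edgeR adjusted p = 0.438), and the part of brown fat in it was not tested.

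**Figure D5:**
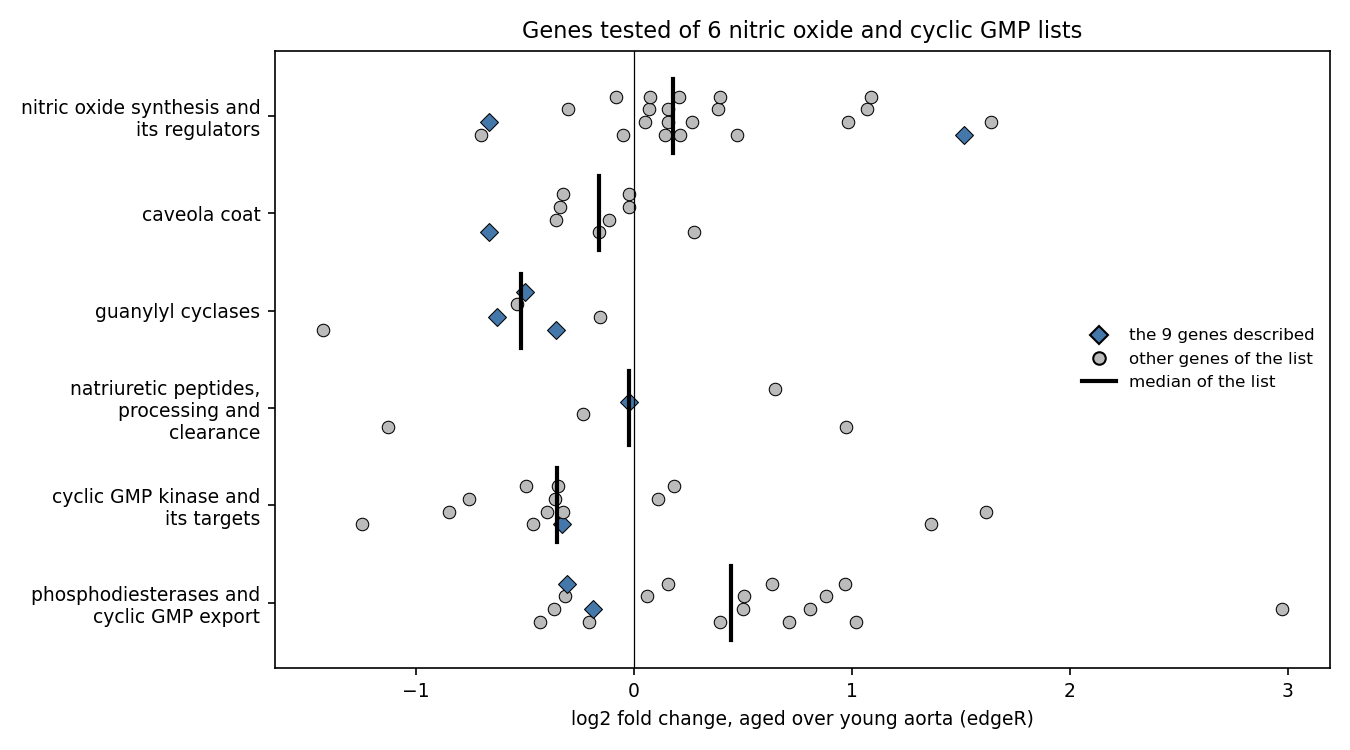
Log2 fold change of aged over young aorta from edgeR for each tested gene of 6 pathway lists, with a bar at the median of each list and blue diamonds for the 9 genes described. The medians ran from -0.52 for the guanylyl cyclases to 0.45 for the phosphodiesterases and export pumps. Only 6 guanylyl cyclases were tested, and Gucy1a2 and Gucy2g among them averaged under 1 CPM in either group.

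Genes whose log2 CPM followed each member most closely over the 6 libraries were taken from 9152 tested genes that averaged 10 CPM or more, by Pearson r and as a description. For Nos3 they were Cd24a, Rasip1 and Ece1 (r = 0.99 for each). For Gucy1a1 they were Pde5a, Rfxank and Wdr6 (r = 0.99 for each), and for Pde5a they were Atp1b2 (r = 0.998), Gucy1a1 (r = 0.99) and Lgr6 (r = 0.98). For Cav1 they were Ikzf5, Zfp874b and Creb3l2, for Gucy1b1 Arhgap44, Astn2 and Pi15, for Prkg1 B230219D22Rik, Trim33 and Actr8, and for Npr1 Fat4, Rpap1 and Cobl (r = 0.99 for each of these 12 genes). For Pde3a they were Vcpip1, Ctif and Dync1i2 and for Npr3 Phka2, Rad52 and Srsf11, with r between 0.97 and 0.99. The highest of 9152 values of r over 6 libraries are high by selection, so they do not show joint regulation. The r values for Nos3 include aged replicate 3 and were not computed without it.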

How the data were processed

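Aorta RNA of mice was sequenced in 3 young and 3 aged libraries with a SMARTER mRNA kit. The authors deposited whole-number read counts per gene, without normalization, and FPKM values, the count scaled for gene length and library. The build mm10 comes from the submitters' processing notes, and the aligner, counter and annotation are not given in the sources used here. Coordinates are those of GENCODE M21 (GRCm38), in which 55154 of 55335 gene identifiers were found.

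Counts were filtered (filterByExpr by group, minimum count 10, minimum total 15), scaled by TMM and fitted with edgeR 4.0.16 in R 4.3.3, with quasi-likelihood tests and Benjamini-Hochberg adjustment over all genes tested. Scripts were tested on simulated data. Alternatives were RLE scaling, other filters, robust fitting, DESeq2 1.42.0 on all genes, limma 3.58.1 on FPKM (log2 after adding 1 or 0.1), removal of mitochondrial genes, each library left out and a replicate block. Leaving out young replicate 1 with aged replicate 3, the other scalings of the overlap count and the FPKM ratios were chosen after seeing the data. Log2 CPM for marker contrasts and correlations used a pseudocount of 0.25.

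The members and lists were chosen with earlier results of these data known. Named were all members, the most abundant tested gene of each pathway list by FPKM, the 2 with the smallest p, the 3 genes most like each member, and markers set beside a member. Gucy1a2, Npr2, Gucy2g, the markers that DESeq2 called and the overlapping genes were named after their values were seen. Vessels were taken from each mouse, but no label ties a library to 1 animal, so p values measure only the spread between these libraries, which may be technical. Every member had at least 503 counts in each library.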

Additional observations from a re-analysis of the deposited data

How the results depend on the processing

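Called genes depended on the tool and on 1 library. DESeq2 called 305 genes where edgeR called 0. With 1 library left out in turn edgeR called 0 to 110 genes, 110 without aged replicate 2, the library with high brown fat markers, and the cause was not tested. None of the 9 genes was called in any of 17 alternatives, and 8 of them kept their direction in all 17. Npr3 ranged from -0.16 to 0.12 (log2) with 1 library left out, at 0.12 without young replicate 2 and 0.11 without aged replicate 1. Differences near 0 against markers turned sign when 1 library was left out. Against smooth muscle, Prkg1 ranged from -0.030 to 0.071, Pde5a from -0.041 to 0.176 and Npr1 from -0.060 to 0.050, and Npr1 was at 0.064 with the median of the markers. Npr3 against endothelium was not near 0 with all libraries, at -0.48 (exact two-sided permutation test, p = 0.7). It ranged from -0.88 to 0.016, at 0.016 without aged replicate 3. Against smooth muscle Npr3 was at 0.32 (exact two-sided permutation test, p = 0.3) and ranged from 0.22 to 0.48. Limma on FPKM moved the median of all genes to -0.12 and -0.19 (pseudocounts 1 and 0.1), with 68.5% and 68.8% of genes lower, beside 47.9% in edgeR.

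Same-numbered libraries deviated together only weakly (correlations 0.081, 0.128 and 0.116), so the numbers were not taken to pair the mice. With a replicate block edgeR called 0 genes, and the log2 fold change was 1.08 for Nos3 and -0.70 for Cav1.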
